A study of Danio rerio
Oryzias latipes and Oryzias latipes and Danio rerio with 7 samples.

Results

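Neural crest regulators were followed in transplanted zebrafish cells and in the medaka embryos that carried them. The set holds 10 symbols, chosen by name and not by level: tfap2a, pax3a, foxd3, sox10, snai2, twist1a, sox9a, sox9b, crestin and tfec. Matching on the gene symbol, without regard to case, found 10 of 32264 gene IDs in the zebrafish tables and 8 of 20459 in the medaka tables, or 18 of 52723 in all. No medaka record carried the symbol crestin or sox9a. The 3 chimera libraries (zebraka, strain Cab/AB) came from medaka blastulae that had received zebrafish blastomeres of the same age. They were set against 2 libraries of zebrafish embryos (strain AB) and 2 of medaka embryos (strain Cab). All embryos grew at 28 °C, the chimeras and the medaka in ERM and the zebrafish in E3 medium, and the stage is labelled only as embryo. RNA of whole embryos was selected for poly(A) and sequenced, and each library was quantified on both genomes.

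The neural crest is a population of cells that forms at the border of the neural plate, leaves the neural tube and migrates through the embryo. It gives rise to pigment cells, peripheral neurons and glia, and much of the skeleton and connective tissue of the head. Border genes such as tfap2a and pax3a act first, specifiers such as foxd3, sox10 and snai2 follow, and twist1a marks migrating and head mesenchymal crest. Several members also act elsewhere: tfap2a in epidermis and retina, pax3a in the dorsal neural tube and somites, sox9a and sox9b in cartilage, retina and glia, and twist1a in mesoderm.

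The comparison on the zebrafish genome asks which crest genes the donor cells expressed inside a medaka embryo. On that genome the chimeras held 941708, 764000 and 847288 fragments, as implied by the deposited confidence limits, against 21866700 and 28574300 in the zebrafish embryos. Per unit of FPKM (fragments per kilobase of transcript, scaled to mapped fragments) the embryo libraries were 35.8-fold, 48.6-fold and 41.1-fold deeper than chimeras 1, 2 and 3, so a weak donor gene rests on few fragments. On the medaka genome the chimeras held 27167700 to 30984000 fragments and the medaka embryos 18330400 and 21491600. FPKM below are the authors' values rescaled by the median ratio between libraries. Differences are chimera minus embryo on the log2(FPKM + 1) scale, which understates the change of low genes, and adjusted p-values are from limma with Benjamini-Hochberg adjustment over all genes tested, at a threshold of 0.05. Rearing medium cannot be told apart from transplantation in the donor comparison. In whole embryos, fewer cells of a type and less RNA per cell cannot be told apart either. The labels do not say whether a group's libraries are separate clutches or pools, so the p-values measure the spread between these libraries only, and that spread may be technical.

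The donor cells held RNA of tfap2a, pax3a, sox9a and sox9b, and little or none of foxd3, sox10, snai2, twist1a and crestin. Of the 10 members 9 were tested, of which 7 were lower in the donor cells, 1 was higher and 1 was not called. Of those lower, sox10, foxd3, snai2, twist1a and crestin averaged under 1 FPKM in the chimeras. They passed the expression filter through the embryos alone, which leaves only a lower call open to them. So did the 2009 of all genes tested that were at 0 in all chimeras. tfec, at a mean of 0.988 rescaled FPKM in the chimeras, lay at the edge of this filter. Over all 16556 zebrafish genes tested, 32.5% were called lower and 10.5% higher. This balance rests on the scaling, since quantile normalization called 3923 of the same genes lower and 4988 higher, and 6 members lower and 1 higher. The median difference was -1.43 over the 9 members, against -0.23 over all genes tested, and under quantile normalization it was -0.63 over the members, against 0.25 over all genes. Among the 14556 genes that held, or at the embryo level would have held, at least 3 fragments per chimera on average, 33.6% were called lower.

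**Figure D1:**
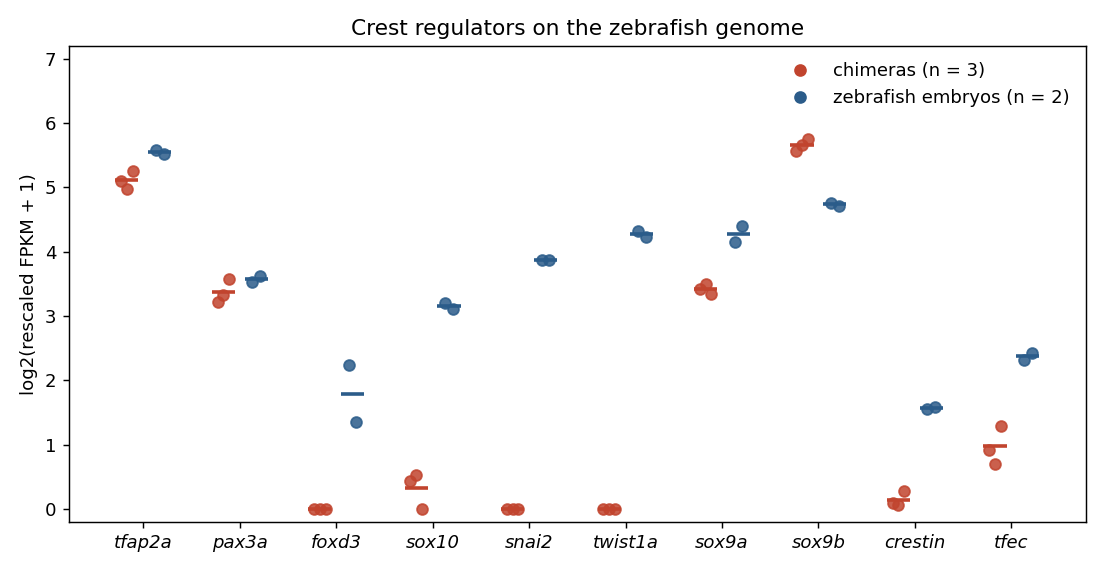
Level of the 10 crest regulators on the zebrafish genome, in rescaled FPKM on a log2(FPKM + 1) axis, with 1 point per library for the 3 chimeras and the 2 zebrafish embryo libraries and a bar at each group's mean. snai2, twist1a and foxd3 lie at 0 in every chimera, sox9b lies above the embryos in every chimera, and the points of pax3a overlap between the groups.

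tfap2a (chr24:8581299-8592141, danRer10), an AP-2 transcription factor that acts at the start of the crest programme, had 33.4, 30.5 and 37.0 FPKM in the chimeras, against 46.9 and 44.8 FPKM in the zebrafish embryos. The chimeras were thus all lower, and the groups did not overlap. The gene was left out of the main test because medaka libraries gave 13.2 and 32.1 FPKM at the zebrafish locus. After the signal expected from host reads was subtracted, a step added after the data were seen, the chimeras stood at 30.1, 27.1 and 33.8 FPKM. By that estimate host reads made up 9.78% of the chimera level. The difference was then -0.58 (adjusted p = 0.0169 by limma), and it was -0.44 (adjusted p = 0.0314 by limma) with no subtraction and no filter.

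pax3a (chr2:47517819-47578737), a paired-box factor of the neural plate border and dorsal neural tube, had 8.33, 9.03 and 10.9 FPKM in the chimeras, against 10.6 and 11.3 FPKM in the zebrafish embryos. Chimera 3 lay within the embryo range, so the groups overlapped. The means were 9.44 ± 1.35 FPKM (SD, n = 3) in chimeras and 10.9 ± 0.487 FPKM (SD, n = 2) in embryos, and the difference of -0.20 (SE 0.15) was not called (adjusted p = 0.354 by limma), nor was the difference of 0.12 under quantile normalization (adjusted p = 0.511 by limma). No medaka signal was listed at this locus.

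foxd3 (chr6:32105118-32106916), a forkhead factor of premigratory crest, was listed at 0 in all 3 chimeras, against 3.70 and 1.55 FPKM in the zebrafish embryos. The embryo libraries differed from each other by more than 2-fold here. At the mean embryo level 11.8 fragments would have been present over the 3 chimeras, so the donor level was at least 3.92-fold lower, taking a floor of 3 fragments over the group. It was at least 2.31-fold lower with zebrafish replicate 1 left out, and at least 5.52-fold lower with zebrafish replicate 2 left out. The difference was -1.79 (SE 0.27; adjusted p = 0.00587 by limma).

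sox10 (chr3:2013057-2022138), a SoxE factor needed for pigment cells, glia and peripheral neurons of the crest, had 0.355, 0.444 and 0 FPKM in the chimeras, against 8.19 and 7.61 FPKM in the zebrafish embryos. Every chimera was far below both embryo libraries. About 3.99 fragments were present over the chimeras, where 126 would have been present at the embryo level, which is 3.15% (approximate 95% Poisson interval 0.857% to 8.09%, counting error only). The difference was -2.83 (SE 0.21; adjusted p = 4.5e-04 by limma).

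snai2 (chr24:35501020-35507036), a zinc finger repressor of the Snail family tied to the exit of crest cells from the epithelium, was listed at 0 in all 3 chimeras, against 13.6 and 13.6 FPKM in the zebrafish embryos. At the embryo level 203 fragments would have been present over the chimeras. The donor level was therefore at least 67.8-fold lower, and the difference was -3.87 (SE 0.13; adjusted p = 7.8e-05 by limma).

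twist1a (chr19:2397417-2399443), a basic helix-loop-helix factor of migrating crest and head mesenchyme, was listed at 0 in all 3 chimeras, against 18.9 and 17.7 FPKM in the zebrafish embryos. With 91.0 fragments present at the embryo level, the donor level was at least 30.3-fold lower. The difference of -4.27 (SE 0.14, adjusted p = 7.3e-05 by limma) was the lowest among the 9 members tested. For a gene at 0 in every chimera this value follows from the embryo level alone. By fragments the bound was larger for snai2, at 67.8-fold. No medaka read was listed at the zebrafish sox10, snai2 or twist1a locus.

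The 2 sox9 genes, which arose as copies of 1 ancestral gene in fish, went opposite ways in the donor cells. sox9a (chr12:1927596-1931236), needed for cartilage formation in zebrafish, had 9.75, 10.3 and 9.12 FPKM in the chimeras, against 16.8 and 20.1 FPKM in the zebrafish embryos. All chimeras were lower, at 52.9% of the mean embryo level (-0.85, SE 0.13; adjusted p = 0.0062 by limma), on 15.1 to 21.1 fragments each. sox9b (chr3:62341796-62348451), which also acts in retinal and neural glia, had 46.5, 49.8 and 53.1 FPKM in the chimeras, against 26.1 and 25.2 FPKM in the zebrafish embryos. All chimeras were higher, and the level was 1.94-fold that of the embryos (0.93, SE 0.10; adjusted p = 0.00134 by limma), on 108 to 194 fragments each. sox9b was the member called higher.

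crestin (chr4:45690506-45694942), a zebrafish retroelement transcript used as a marker of crest cells, had 0.0630, 0.0394 and 0.212 FPKM in the chimeras, against 1.94 and 1.99 FPKM in the zebrafish embryos. The chimeras together held 1.15 implied fragments where 44.2 would have been present, or 2.61% (approximate 95% Poisson interval 0.1% to 13.2%). Implied fragments are not whole counts here, so the interval is rough. By FPKM the chimeras stood at 5.33% of the mean embryo level. The difference was -1.43 (SE 0.11; adjusted p = 4.5e-04 by limma), and -0.45 under quantile normalization (adjusted p = 0.0351 by limma). Copies of the element occur in the genome, so how reads were shared among them is uncertain.

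tfec (chr4:5988658-6039484), a factor related to Mitf that acts in iridophores and in the pigmented epithelium of the eye, had 0.887, 0.624 and 1.45 FPKM in the chimeras, against 3.96 and 4.38 FPKM in the zebrafish embryos. All chimeras were lower, although some signal was present in each. The sum was 4.68 implied fragments, again not a whole count, where 30.5 would have been present, or 15.3% (approximate 95% Poisson interval 4.74% to 36.8%). By FPKM the level was 23.7% of that of the embryos. The difference of -1.40 (SE 0.22; adjusted p = 0.00692 by limma) was not called with quantile normalization (-0.60, adjusted p = 0.0602 by limma), without zebrafish replicate 1 (adjusted p = 0.0840 by limma) and without zebrafish replicate 2 (adjusted p = 0.0908 by limma).

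**Figure D2:**
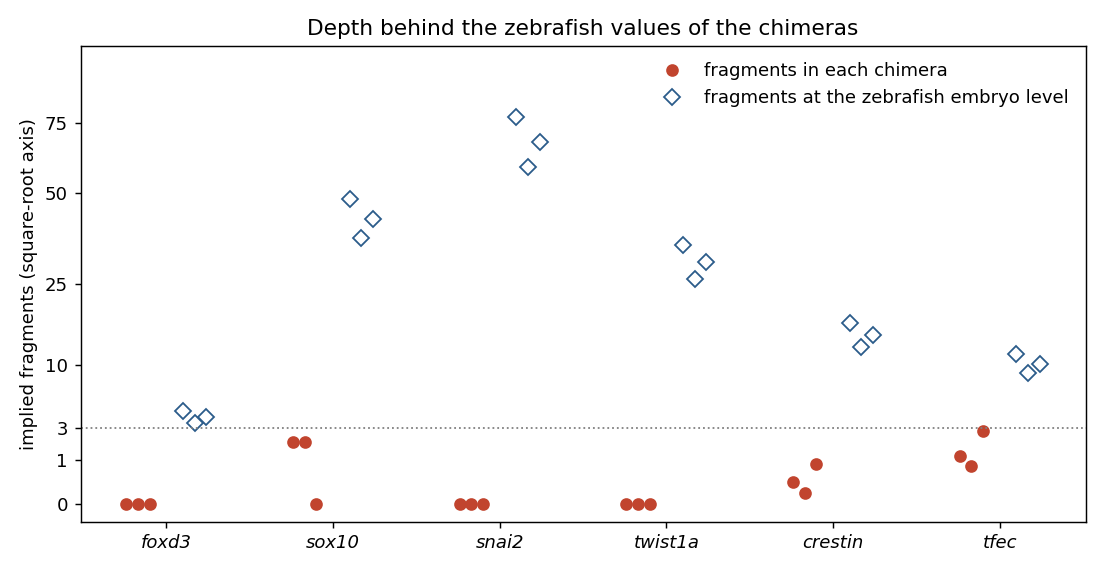
Fragments present in each chimera for 6 donor genes, beside the number that would have been present at the mean zebrafish embryo level, on a square-root axis with a dotted line at 3 fragments. The expected numbers over the 3 chimeras run from 11.8 for foxd3 to 203 for snai2, and 3 of the 6 genes hold no fragment in any chimera.

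The 8 members with a medaka record were present in the host tissue of the same libraries. On the medaka genome, where zebrafish libraries gave 0 at every member, all 8 members were tested and none was called in either direction at an adjusted p under 0.05. Over all 13721 medaka genes tested, 3.13% were called lower and 2.62% higher. At an unadjusted p under 0.05 by limma there were 3 members. The share of all medaka genes at that unadjusted threshold is not given here, so this count has no background. In the fit with voom weights limma called 1 member lower and none higher. The median difference was -0.08 over the members and -0.00 over all genes. The build of the medaka positions is not given in the sources used here.

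Host tfap2a (chr20:11097712-11108500) had 32.8, 30.2 and 32.8 FPKM in the chimeras, against 34.5 and 36.2 FPKM in the medaka embryos (-0.14, SE 0.06; adjusted p = 0.191 by limma). Host pax3a (chr17:24082395-24095842) had 17.2, 18.6 and 18.3 FPKM in the chimeras, against 20.9 and 18.6 FPKM in the medaka embryos (-0.12, SE 0.07; adjusted p = 0.312 by limma). Both border genes were a little lower on average in the chimeras, and neither difference was called. The groups did not overlap for tfap2a and did for pax3a.

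Host foxd3 (chr4:17170902-17172098) had 3.57, 3.77 and 3.84 FPKM in the chimeras, against 4.66 and 5.45 FPKM in the medaka embryos. The groups did not overlap, and the difference of -0.36 (SE 0.08) just missed the threshold (adjusted p = 0.0505 by limma). It was called in a fit of all 3 groups (adjusted p = 0.0191 by limma), with voom weights (adjusted p = 0.0261 by limma) and among genes over the fragment floor (adjusted p = 0.0476 by limma).

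Host sox10 (chr8:19734562-19737141) had 3.96, 4.45 and 4.42 FPKM in the chimeras, against 4.20 and 4.36 FPKM in the medaka embryos, with means of 4.28 ± 0.274 FPKM (SD, n = 3) and 4.28 ± 0.118 FPKM (SD, n = 2). The groups overlapped, and the difference was -0.00 (SE 0.07; adjusted p = 0.990 by limma). Host snai2 (chr17:28188045-28189293) had 13.2, 10.6 and 14 FPKM in the chimeras, against 14.3 and 15.3 FPKM in the medaka embryos (-0.22, SE 0.11; adjusted p = 0.286 by limma). Host twist1a (chr11:8932934-8934057) had 23.1, 25.7 and 21.6 FPKM in the chimeras, against 22.0 and 26.5 FPKM in the medaka embryos (-0.04, SE 0.10; adjusted p = 0.824 by limma). The groups did not overlap for host snai2, with the chimeras lower, and did for host twist1a. On the host side sox10, snai2 and twist1a were thus each measured at 3.96 FPKM or more in every chimera.

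Host sox9b (scaffold2680:1902-4662) had 1.13, 1.07 and 1.19 FPKM in the chimeras, against 0.870 and 0.563 FPKM in the medaka embryos (0.32, SE 0.10; adjusted p = 0.132 by limma). The groups did not overlap, but the difference was not called. Host tfec (chr23:4119199-4129310) had 6.27, 6.73 and 6.18 FPKM in the chimeras, against 5.87 and 5.87 FPKM in the medaka embryos (0.11, SE 0.06; adjusted p = 0.320 by limma). The groups did not overlap for host tfec either, with the chimeras higher. The share of all medaka genes whose groups did not overlap is not given here, so these cases have no background. Medaka records named sox9 and twist1 were looked at after values were seen. The sox9 record had 18.3, 17.7 and 17.9 FPKM in the chimeras, against 14.9 and 15.6 FPKM in the medaka embryos (0.22, SE 0.05; adjusted p = 0.0483 by limma), and was called higher. The twist1 record had 35.5, 40.7 and 39.0 FPKM in the chimeras, against 36.5 and 38.8 FPKM in the medaka embryos, and was not called (0.03, SE 0.07; adjusted p = 0.836 by limma).

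**Figure D3:**
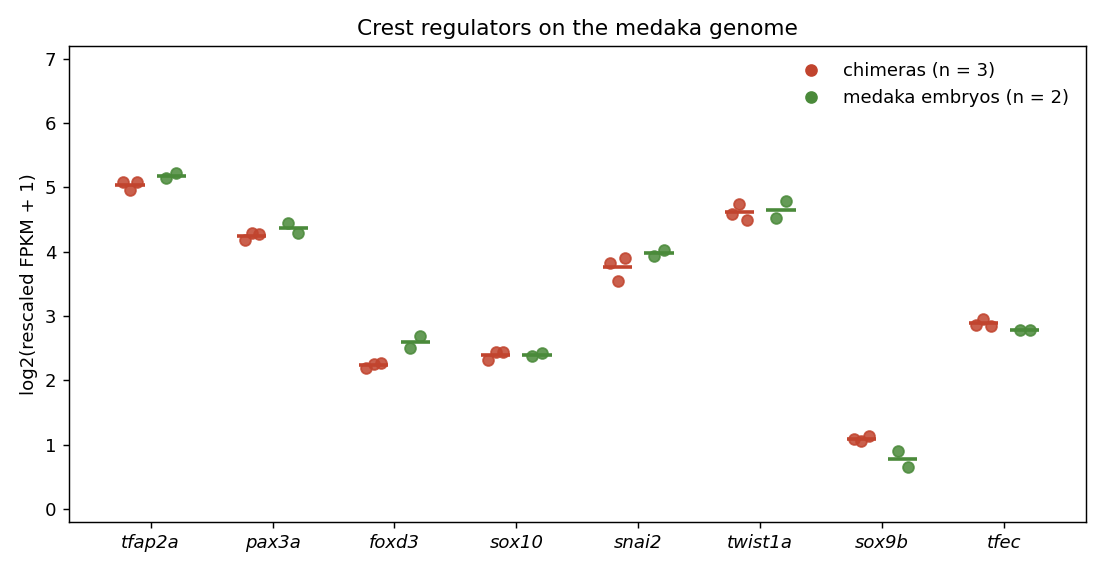
Level of the 8 matched crest regulators on the medaka genome, in rescaled FPKM on a log2(FPKM + 1) axis, with 1 point per library for the 3 chimeras and the 2 medaka embryo libraries and a bar at each group's mean. The points of the groups lie close together for every gene, and no member passed the threshold.

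Whether donor and host differed was tested directly, as the donor difference minus the host difference in 1 model. It compares 2 changes against embryos, not a donor level with a host level. The model took the donor and host values of a chimera, which come from the same library, as independent. It also gave each gene the same spread on both genomes, despite their unlike depths, and the p-values rest on this. Of 7789 symbols held by a single record and tested in both genomes, 30.6% had a donor difference called below the host difference. In 12.8% it was called above, and the median was -0.15. Among the 7 members in this test the donor difference was below the host difference for 5 and above it for 1, and 1 was not called. The differences were -4.23 for twist1a (SE 0.16; adjusted p = 6.4e-08 by limma), -3.65 for snai2 (SE 0.18; adjusted p = 2.6e-07) and -2.83 for sox10 (SE 0.22; adjusted p = 6.0e-06). They were -1.50 for tfec (SE 0.23; adjusted p = 5.8e-04 by limma) and -1.44 for foxd3 (SE 0.30; adjusted p = 0.00388). sox9b was the member on the other side, at 0.61 (SE 0.16; adjusted p = 0.0118 by limma), a call lost with a pseudocount of 0.1 (0.34, adjusted p = 0.287) and without medaka replicate 1 (0.48, adjusted p = 0.0601). With quantile normalization foxd3 was no longer called (-0.92, adjusted p = 0.0512 by limma). pax3a was at -0.08 (SE 0.17; adjusted p = 0.740 by limma). tfap2a, sox9a and crestin could not be tested in this way. Donor and host records were paired by symbol alone. Whether the host sox9b record is the counterpart of zebrafish sox9b was not tested. Donor sox10, foxd3, snai2 and twist1a entered this test through the zebrafish embryos alone, so only a donor difference below 0 was open to them. Their host differences ran from -0.36 for foxd3 to -0.00 for sox10, so a lower result was close to fixed beforehand. For foxd3, snai2 and twist1a the donor values of the chimeras have an SD of 0, and the p-values hold no measured spread between them.

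**Figure D4:**
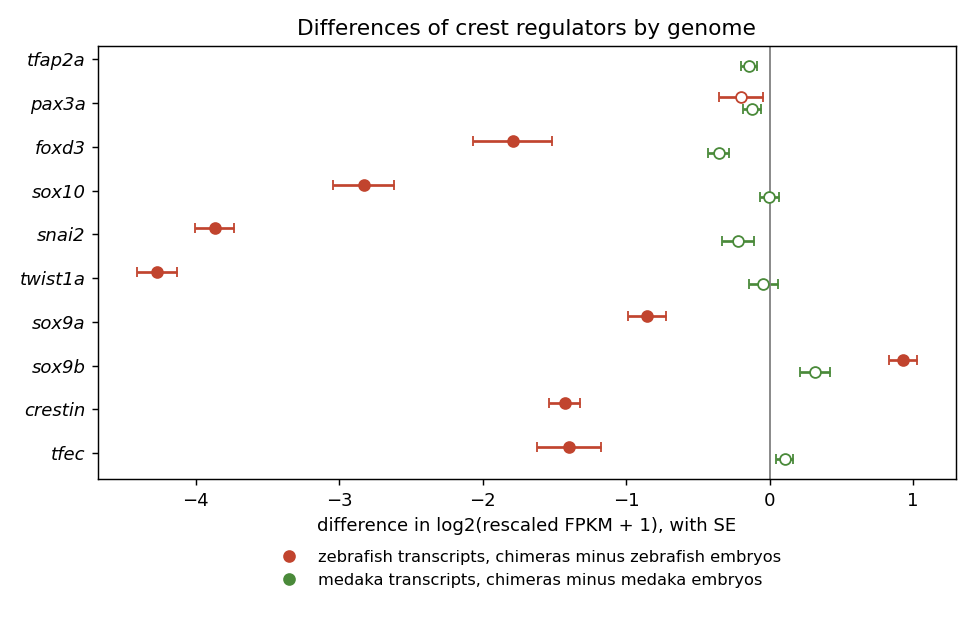
Chimera minus embryo difference of each member on the log2(FPKM + 1) scale, for donor genes and host genes, with standard errors as bars and no donor point for tfap2a, which was left out of the test. Filled points passed the threshold and open points did not: donor points run from -4.27 for twist1a to 0.93 for sox9b, while all 8 host points lie between -0.36 and 0.32.

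Genes that act beside the members were read from 5 lists of 120 crest genes. In the donor cells 91 of their 113 zebrafish records were tested, of which 63 were lower and 7 higher, with a median of -1.45. Of those tested, 2 of plate border, 5 of specification and migration, 4 of pigment, 3 of glia and neurons and 7 of mesenchyme were at 0 in all chimeras. These, and others under 1 FPKM in the chimeras, passed the filter through the embryos alone, so only a lower call was open to them. The genes named per list were taken by smallest p and are no separate support. Over all zebrafish genes tested 32.5% were lower and 10.5% higher, with a median of -0.23. Under quantile normalization, where 3923 of all 16556 genes were lower and 4988 higher, the counts in the lists were 53 lower and 11 higher and the median -1.06. Without zebrafish replicate 1 or without replicate 2 only 4 of the lists' genes were called higher.

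Of 16 tested plate border genes 8 were lower and 2 higher, with a median of -0.83 (-0.08 under quantile normalization). The shares over all zebrafish genes tested were 32.5% lower and 10.5% higher. The homeobox genes dlx4b and msx2a were listed at 0 in all chimeras, against 6.89 and 3.18 FPKM on average in the zebrafish embryos, and dlx3b averaged 0.305 FPKM in the chimeras, against 23.0 FPKM. The border genes called higher, chosen after their values were seen, were zic2b, at 78.6, 98.0 and 74.0 FPKM in the chimeras against 22.2 and 20.3 FPKM in the embryos, and pax7a, at 12.7, 12.7 and 10.2 FPKM against 5.74 and 6.96 FPKM. Of 19 tested genes of crest specification and migration 12 were lower and 4 higher, with a median of -1.47. twist1b, the close relative of twist1a, and the endothelin receptor genes ednrab and ednrba were listed at 0 in all chimeras, against 12.1, 2.95 and 2.67 FPKM in the embryos, and pdgfra, a growth factor receptor of migrating crest, averaged 0.166 FPKM against 14.2 FPKM.

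The relatives of the members, also chosen after their values were seen, differed among themselves in the donor cells. Of the AP-2 genes, tfap2b and tfap2e were higher in the donor cells and tfap2c was not called (0.19, adjusted p = 0.677 by limma). tfap2b had 16.6, 24.6 and 16.0 FPKM in the chimeras, against 9.05 and 8.14 FPKM in the zebrafish embryos (1.04, adjusted p = 0.0183 by limma), and tfap2e had 17.4, 19.5 and 19.1 FPKM, against 10 and 8.15 FPKM (0.97, adjusted p = 0.00402 by limma). The Snail gene snai1a had 0.686, 0.392 and 0 FPKM in the chimeras, against 9.85 and 10.6 FPKM in the embryos, and was lower (-3.08, adjusted p = 7.1e-04 by limma), while snai1b was not called (-1.18, adjusted p = 0.0645 by limma). twist2 was listed at 0 in all chimeras, against 3.43 and 2.42 FPKM in the embryos (-1.96, adjusted p = 3.8e-04 by limma). The pax3a relatives pax3b (-0.90, adjusted p = 0.0592 by limma) and pax7b (-0.34, adjusted p = 0.157 by limma) were not called.

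In the crest's derivatives most donor genes tested were lower, against 32.5% lower and 10.5% higher over all zebrafish genes tested. Of 19 tested pigment cell genes 17 were lower and none higher, with a median of -1.64. gch2, an enzyme of pteridine synthesis in yellow pigment cells, was listed at 0 in all chimeras, against 134 and 101 FPKM in the zebrafish embryos, and was at least 352-fold lower. aox5 and xdh, of the same pathway, were also at 0, against 8.57 and 2.58 FPKM. The purine enzyme paics kept 53.2 FPKM, against 256 FPKM. Of 23 tested genes of head crest mesenchyme 18 were lower and none higher, with a median of -2.05, and foxc1a, dlx4a and alx1 were listed at 0, against 14.2, 10.3 and 5.00 FPKM in the embryos. Of 14 tested genes of crest glia and neurons 8 were lower and 1 higher, with a median of -0.92 (-0.22 under quantile normalization). hand2, a regulator of sympathetic neurons, was listed at 0 against 13.4 FPKM, while ascl1a, a proneural gene used widely in the nervous system and retina, was the one called higher, at 47.9, 50.8 and 58.9 FPKM in the chimeras against 23.5 and 19.1 FPKM in the embryos.

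In the host, 65 of 83 records of the same lists were tested, and 11 were higher and 2 lower, with a median of 0.13. Over all medaka genes tested 2.62% were higher and 3.13% lower, with a median of -0.00. Pigment genes gave 5 of the higher calls, 2 of them from records of tyr, and among the others was tyrp1a, a melanin enzyme, at 49.4 FPKM in the chimeras against 36.9 FPKM in the medaka embryos. Among glial and neuronal genes 3 were higher, including plp1a, a myelin protein gene, at 57.3 FPKM against 41.1 FPKM. ednrba, an endothelin receptor gene of crest cells, was lower at 9.04 FPKM against 12.6 FPKM, and so was the border gene msx1a at 47.7 FPKM against 56.2 FPKM. The host counts moved when single libraries were left out: 5 records were higher without chimera replicate 1, 1 without chimera replicate 3, and none without medaka replicate 1 or without medaka replicate 2.

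**Figure D5:**
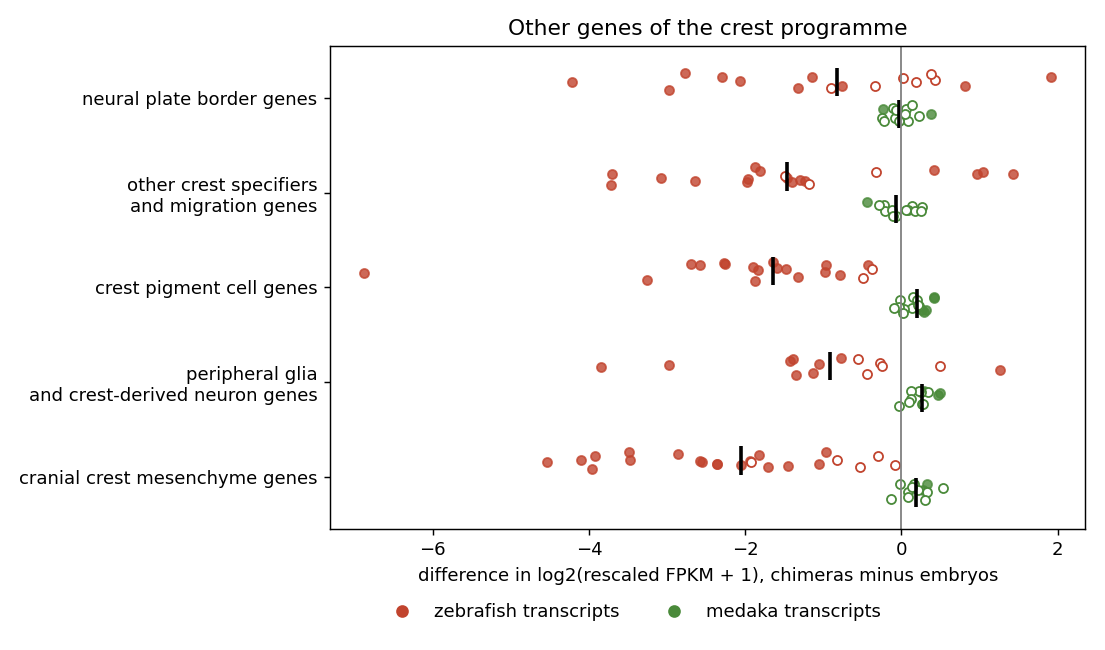
Chimera minus embryo difference on the log2(FPKM + 1) scale for every tested gene of the 5 crest lists, donor and host, with filled points for called genes, open points for others and a black bar at the median. Donor medians run from -2.05 for head crest mesenchyme to -0.83 for plate border genes, and host medians from -0.07 to 0.26.

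Markers of other tissues in which members are active differed in direction in the donor cells. Over all zebrafish genes tested 32.5% were lower and 10.5% higher. Of 8 tested epidermis markers all 8 were lower, and icn, icn2, agr1 and anxa1c were at 0 in all chimeras. A tested marker at 0 in all chimeras passed the filter through the embryos alone, so only a lower call was open to it. Sums, here and for the lists below, are over all records of a list with a valid status. They take in records left out of the test as low or cross-mapped. For epidermis the sum was 9.06 to 10.8 FPKM in the chimeras, against 4602 to 5265 FPKM in the zebrafish embryos. Of 11 tested markers of amacrine and horizontal cells 6 were higher and 1 lower, with a sum of 547 to 631 FPKM, against 165 to 166 FPKM, and none was at 0 in all chimeras. Those called higher were pax6a, foxn4, prox1a, ptf1a, barhl2 and onecut1. The transmitter gene slc32a1 was called lower (-1.15, adjusted p = 0.0269 by limma). The others, gad1b (-1.16), gad2 (-0.50), slc6a9 (-0.56) and lhx1a (-0.66), lay below 0 and were not called. The sum does not describe these genes. Of 11 tested markers of retinal progenitors and Müller glia 7 were higher and 3 lower, with a sum of 375 to 420 FPKM, against 384 to 411 FPKM, and none was at 0. Of 7 tested markers of retinal pigment epithelium, where tfec is also active, 5 were lower and 1 higher, with a sum of 163 to 176 FPKM, against 139 to 164 FPKM, and none was at 0 in all chimeras. The marker called higher was otx2 (2.70), while those called lower ran from -4.73 for rpe65b to -1.08 for rpe65a. The sum therefore does not describe most genes of this list.

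All 5 tested cartilage and notochord markers were lower. Their list summed to 7.98 to 10.3 FPKM in the chimeras, against 598 to 622 FPKM in the embryos. Of its genes col9a1a was at 0 in all chimeras, as were acana and matn1, which were not tested. Of 6 tested somite markers 5 were lower and 1 higher, with a sum of 11.4 to 13.1 FPKM, against 29.8 to 34.5 FPKM. The somite marker called higher was pax7a, which is also counted among the plate border genes. Of the somite markers tested, myod1, pax9 and pax1a were at 0 in all chimeras. The genes meox2a and meox2b were also at 0 but were not tested, since they averaged under 1 FPKM in both groups. Of 5 tested otic markers 3 were lower and none higher, with a sum of 27.4 to 33.4 FPKM, against 51.2 to 53.7 FPKM, and none was at 0. In the host, 3 of 5 tested amacrine and horizontal cell markers were higher, with a sum of 29.1 to 29.4 FPKM in the chimeras, against 22.1 to 23.6 FPKM in the medaka embryos, and 2 of 6 progenitor and Müller glia markers were higher, with a sum of 247 to 253 FPKM, against 205 to 213 FPKM. Of the other host markers, 1 of 5 for retinal pigment epithelium, 1 of 7 for cartilage and notochord and 1 of 3 for the otic vesicle were higher and none lower, 1 of 4 for somites was higher and 2 lower, and 0 of 4 for epidermis were called. The host somite marker called higher was again pax7a, which is also the host plate border gene called higher. Over all medaka genes tested 2.62% were higher and 3.13% lower. The part of these tissues in the host lists and in the levels of the members, sox10, foxd3 and snai2 included, was not tested.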

How the data were processed

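Whole-embryo RNA was measured in 7 libraries. The authors deposited FPKM with confidence limits. The submitters' processing notes name HISAT2, Cufflinks 2.2.1 and danRer10. For HISAT2 the version, and for medaka the build, is not given in the sources used here. The 14 deposited tables were all read. Implied fragments are (2 FPKM / (upper limit - FPKM)) squared, which is too low for genes with several isoforms. They can part from FPKM. Donor sox9b had 447 over the chimeras against 124 at the embryo level, but was 1.94-fold by FPKM. Donor tfap2a had 398 against 191, but stood at 73.3% of the embryos by FPKM. Bounds and shares by fragments carry this error.

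FPKM were rescaled by the median ratio over genes above 0 in every library, and taken as log2 with a pseudocount of 1. Tested genes had a mean deposited FPKM of at least 1 in either group, under 1 in the other species' libraries and a valid Cufflinks status. limma 3.58.1 (R 4.3.3; trend and robust options) gave Benjamini-Hochberg adjusted p-values, at 0.05. The expression filter was first applied to rescaled FPKM and was moved to deposited FPKM after results had been seen, with the number of genes tested in an earlier analysis of these data known. The earlier form is among the alternatives. The tests were tried on simulated data. Tables and figures used Python 3.11.15.

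The members and lists were chosen with earlier results of these data known. The rule for named genes takes every member and, per list, up to 4 with the smallest p. Any other gene named, markers at 0 included, was chosen after its values were seen. No sequence is printed, and a reference genome was not used here.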

Additional observations from a re-analysis of the deposited data

Results flagged for a closer look

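For 6 members the difference from whole embryos was not the same in donor and host, by limma's test of the donor difference minus the host difference. On the log2(FPKM + 1) scale this was -4.23 for twist1a, -3.65 for snai2, -2.83 for sox10, -1.50 for tfec and -1.44 for foxd3. In each of these the donor difference lay below the host difference. For sox9b the value was 0.61, with the donor difference above, a call lost with a pseudocount of 0.1. Donor sox10, foxd3, snai2 and twist1a passed the filter through the zebrafish embryos alone, which left only a donor difference below 0 open to them. Host sox9b averaged 1.13 FPKM in the chimeras and 0.717 FPKM in the medaka embryos, so it passed the filter through the chimeras alone. At such levels the log2(FPKM + 1) scale understates change. As a ratio of means sox9b was 1.94-fold the embryo level in the donor cells and 1.58-fold in the host. The donor and host sox9b records were paired by symbol alone. Donor and host values of a chimera come from the same library but from different genomes and depths. The part of depth in these differences was not tested.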

How the results depend on the processing

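No member changed direction past the threshold under any alternative run, and the calls of sox10, foxd3, snai2, twist1a, crestin, sox9a and sox9b in the donor cells were kept under each one that tested them. For foxd3, snai2 and twist1a the fits with 1 zebrafish library left out say nothing of stability, since the spread then comes from chimeras all at 0. In the main fit too the chimeras of these genes have an SD of 0, at a far lower depth than the embryos. Their limma p-values therefore hold no measured spread between chimeras. For foxd3 the difference was -1.37 without zebrafish replicate 1 and -2.23 without replicate 2. At a minimum mean FPKM of 5, which tests fewer members, 4 were lower. With the expression filter on rescaled FPKM, 16612 zebrafish genes were tested, 5424 were lower and 1737 higher, and every count of member calls was as given. Leaving out each library gave 6 to 7 members lower and 1 to 1 higher in the donor cells, 0 in the host, and 5 to 5 lower and 0 to 1 higher in the donor against host test, where a pseudocount of 0.1 gave 0 higher. In the host 1 member, foxd3, was lower with all 3 groups, over the floor and with voom weights.

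Donor list genes called higher numbered 11 under quantile normalization and 4 to 8 with a library left out, and those called lower 42 to 63. In the host, 19 were higher and 6 lower with all 3 groups, 6 lower with voom weights, 1 lower without rescaling and 1 without trend and robust options, and 0 to 10 higher and 0 to 3 lower with a library left out. Over all donor genes 4988 were higher and 3923 lower under quantile normalization and 619 to 1868 were higher with a library left out. Lower were 2965 at a minimum mean FPKM of 5, 9479 with no expression filter and 3306 to 5525 with a library left out, the fewest without zebrafish replicate 2 and then 3349 without replicate 1. Over all host genes, 978 were higher and 992 lower with all 3 groups, 543 and 673 with voom weights, 247 lower without rescaling, and 44 to 483 higher and 79 to 544 lower with a library left out. The causes were not tested.

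No paired analysis was possible because the labels give no number that ties a chimera library to an embryo library. In the donor against host test, the library as a block gave 5 members lower and 1 higher. Where 1 embryo library is left out, the lone one is assumed to vary like the chimeras. Low fragment numbers limit the donor values of foxd3, sox10, crestin and tfec.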
